A study of Homo sapiens with 6 samples.

Results

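The major histocompatibility complex (MHC) is the gene-dense stretch of human chromosome 6 that carries the HLA genes. Its peaks were taken from 3 deposited ChIP-seq peak lists by position: a peak belonged to the MHC when its summit lay on hg19 chromosome 6 between 29600000 and 33400000. The stretch was divided into a class I part (29600000 to 31500000), a class III part (31500000 to 32350000) and a class II part (32350000 to 33400000). It held 177 of the 35687 listed peaks: 39 of 9769 for BRD8 in Calu3, 44 of 9505 for BRD8 in 16HBE14o- and 94 of 16413 for CTCF in Calu3. Peaks were taken by position alone, without use of their signal or overlaps; the region itself was chosen with earlier results of these data known.

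Chromatin of 2 human lines was used: Calu3, derived from a lung adenocarcinoma, and 16HBE14o-, derived from bronchial epithelium. BRD8 was precipitated from both with the antibody Active Motif 61007, and CTCF from Calu3 with the antibody Millipore 07-729. Both lines grew in DMEM + 10% FBS without treatment, and each experiment had 2 replicates, which the authors joined into 1 list by the irreproducible discovery rate (IDR), a procedure that keeps peaks ranked alike in both. No value for a single replicate was used here and sequencing depth is unknown, so no difference below could be set against the spread between replicates; shares carry 95% exact Clopper-Pearson intervals, which cover counting error only.

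Class I molecules present peptides from inside the cell to cytotoxic T cells, and class II molecules present peptides taken up from outside to helper T cells, mostly on professional antigen-presenting cells. The class III part between them holds genes of the complement system and of the tumour necrosis factor family. CTCF, a DNA-binding zinc finger protein, occupies insulators and the anchors of chromatin loops. BRD8 carries a bromodomain and belongs to NuA4/TIP60, a complex that acetylates histones. From telomere to centromere, RefSeq (GRCh38.p14) orders the 9 genes of interest as HLA-F, HLA-E, HLA-C, HLA-B, HLA-DRA, HLA-DQA1, TAP1, PSMB9 and HLA-DPB1. The first 4 encode class I heavy chains; HLA-DRA, HLA-DQA1 and HLA-DPB1 encode class II chains. TAP1, a subunit of the transporter that feeds peptides to class I molecules, and PSMB9, a catalytic subunit of the immunoproteasome, neighbour each other and lie among the class II genes, although both serve the class I pathway. HLA-C and HLA-B are also direct neighbours, with 0 protein-coding genes between them, whereas 63 lie between HLA-B and HLA-DRA. That table gives gene order alone for these lists, since it is on another build; no peak is assigned to a gene here, and sequences under the peaks were not analysed here.

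BRD8 peaks of both lines were sparser per Mb in the class III part than in the class I part. In the class II part Calu3 BRD8 peaks were missing, whereas BRD8 of 16HBE14o- and CTCF of Calu3 had peaks in all 3 parts. The class I part held 33 Calu3 BRD8 peaks, 25 16HBE14o- BRD8 peaks and 46 CTCF peaks. The class III part held 6, 7 and 23 peaks in the same order of lists. The class II part held 0 Calu3 BRD8 peaks, 12 16HBE14o- BRD8 peaks and 25 CTCF peaks. The Calu3 line therefore had listed CTCF peaks but no listed BRD8 peak over the part of the MHC that carries the class II genes, TAP1 and PSMB9.

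**Figure D1:**
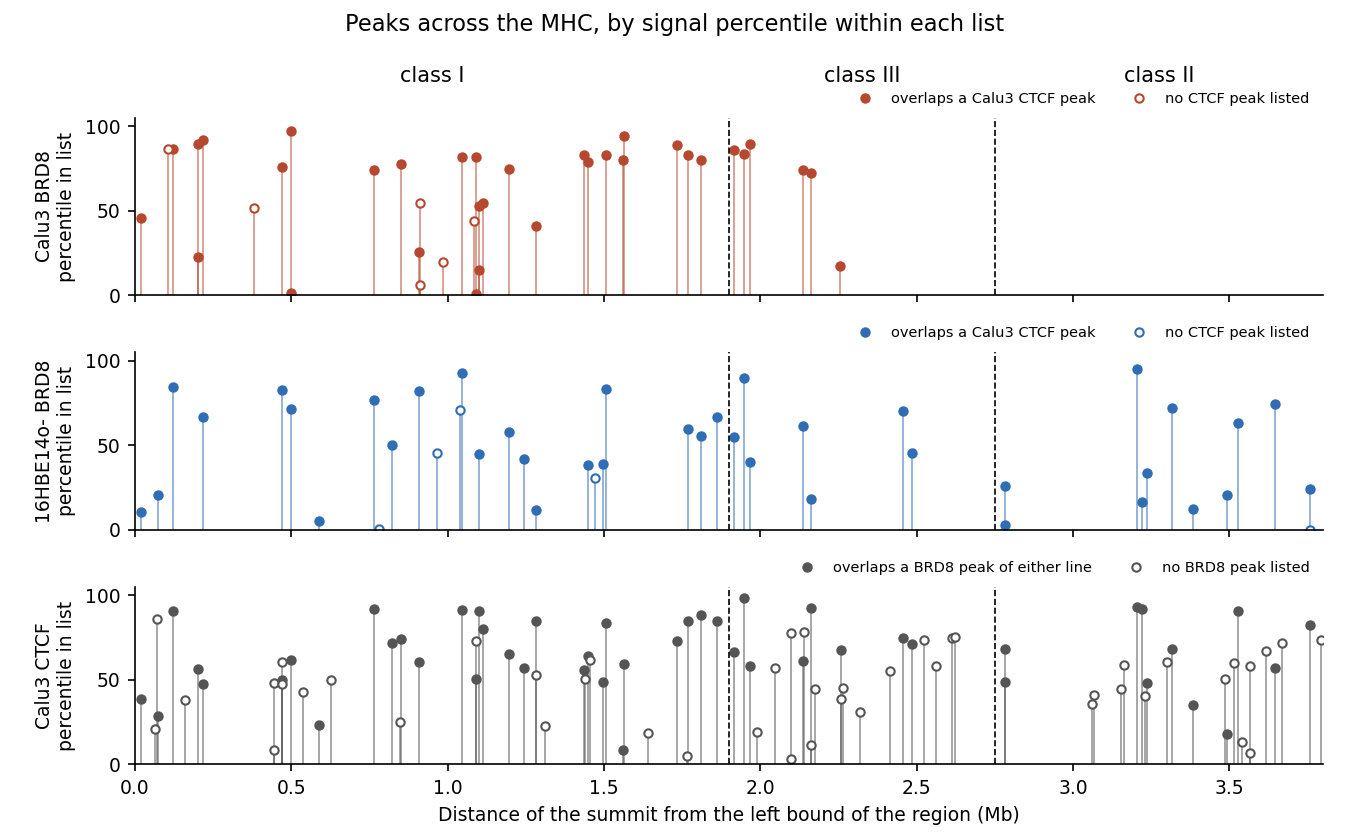
Each stem is 1 peak of the MHC, placed by the distance of its summit from the left bound of the region (Mb, horizontal axis) and as tall as its signal percentile within its own list (100 is strongest). Rows are Calu3 BRD8 (39 peaks), 16HBE14o- BRD8 (44) and Calu3 CTCF (94); filled points overlap a CTCF peak or, in the CTCF row, a BRD8 peak of either line. The Calu3 BRD8 row is empty over the class II part, where the 16HBE14o- row has 12 peaks and the CTCF row 25.

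By length, the MHC was dense in all 3 lists. Calu3 BRD8 had 10.3 peaks per Mb in the MHC, against 1.42 on the rest of chromosome 6 and 3.22 over the whole list. BRD8 of 16HBE14o- had 11.6 per Mb in the MHC, against 3.48 on the rest of chromosome 6 and 3.13 over the whole list. CTCF had 24.7 per Mb in the MHC, against 3.36 and 5.41. The MHC makes up 2.22% of the length of chromosome 6, and it held 14.1% of the Calu3 BRD8 peaks of that chromosome (10.2 to 18.7), 7.02% of those of 16HBE14o- (5.14 to 9.31) and 14.3% of the CTCF peaks (11.7 to 17.2). In Calu3 the 39 BRD8 peaks formed 34 separate stretches, 5 of which held more than 1 overlapping peak, and the 44 of 16HBE14o- formed 43.

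Within the MHC, the class I part was 50% of the length. It held 84.6% of the Calu3 BRD8 peaks (69.5 to 94.1), 56.8% of the 16HBE14o- BRD8 peaks (41.0 to 71.7) and 48.9% of the CTCF peaks (38.5 to 59.5). CTCF was thus spread almost in proportion to length, with 24.2, 27.1 and 23.8 peaks per Mb in the class I, class III and class II parts. BRD8 of 16HBE14o- had 13.2, 8.24 and 11.4 peaks per Mb in the same parts, and BRD8 of Calu3 had 17.4, 7.06 and 0. In 38 bins of 100 kb, 20 held no Calu3 BRD8 peak, 13 no 16HBE14o- BRD8 peak and 3 no CTCF peak.

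**Figure D2:**
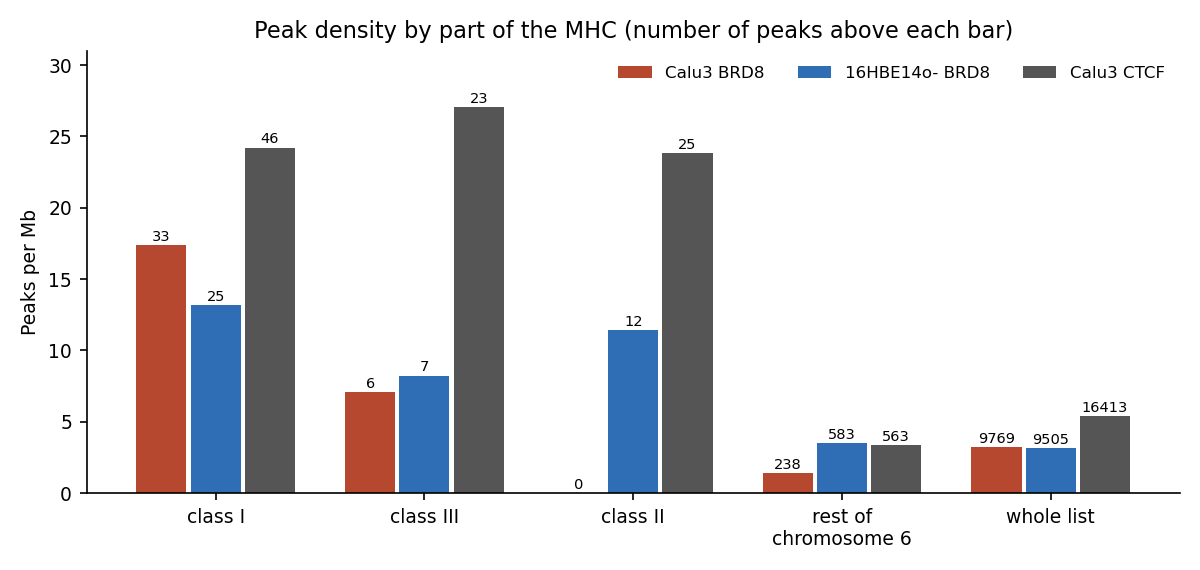
Bars give peaks per Mb (vertical axis, from 0) for Calu3 BRD8, 16HBE14o- BRD8 and Calu3 CTCF in the 3 parts of the MHC, on the rest of chromosome 6 and over the whole list; the number of peaks stands above each bar, and each bar is 1 pooled list without replicate error. CTCF stays between 23.8 and 27.1 per Mb across the parts while Calu3 BRD8 goes down to 0 in the class II part.

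The MHC peaks of Calu3 BRD8 were also strong for their list. Peaks were ranked by the authors' signal within each list and given as percentiles, where 100 is the strongest. The median was 75.8 in the MHC (95% interval of the median 52.9 to 82.7), against 49.7 on the rest of chromosome 6, and 28 of 39 peaks lay in the upper 50% of the list. BRD8 of 16HBE14o- had a median of 47.8 in the MHC (38.1 to 63.4), against 49.4 on the rest of chromosome 6, with 22 of 44 in the upper 50%. CTCF had a median of 58.2 (50.6 to 61.6), against 51.0, with 59 of 94 in the upper 50%. By part, the Calu3 BRD8 medians were 75.8 and 78.5 in the class I and class III parts. Those of 16HBE14o- were 55.7, 54.8 and 24.9 in the class I, class III and class II parts. The class II median rests on 12 peaks, of which 4 were in the upper 50%, and its interval of 12.1 to 71.8 includes the middle of the list. The CTCF medians of 56.7, 61.3 and 58.1 were close to each other.

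The strongest Calu3 BRD8 peak of the MHC (hg19 chromosome 6, 30098721 to 30099196, class I) had a signal of 102.9 and ranked 280. The strongest 16HBE14o- peak (32806505 to 32806728) had a signal of 56.0 and ranked 480, and it lay in the class II part, where Calu3 had none. The strongest CTCF peak lay in the class III part at the region from 31548547 to 31549022, with a signal of 242.7 and rank 298, and BRD8 of both lines was listed there too. Signals of different lists may be on different scales and are not compared.

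All positions below are hg19 chromosome 6. In the class I part, the 5 strongest Calu3 BRD8 peaks lay at 30098721 to 30099196 (percentile 97.1), 31164718 to 31165193 (94.0), 29815809 to 29816284 (91.8), 29802479 to 29802954 (89.4) and 31334599 to 31335074 (88.6). Each of the 5 overlapped CTCF, but only the first and the third had BRD8 in 16HBE14o-. The 5 strongest of 16HBE14o- in that part, at percentiles from 81.9 to 92.8, all lay in regions that held all 3 lists, and so did the 5 strongest CTCF peaks, at percentiles from 88.4 to 92.0. In the class III part, the 5 strongest Calu3 BRD8 peaks were the 5 that 16HBE14o- shared. The sixth, at 31856209 to 31856684 (percentile 17.5), overlapped CTCF alone and was the last listed Calu3 BRD8 peak before the class II part.

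Overlap between the lines was close to that of the whole lists over the MHC and absent from the class II part. A BRD8 peak of 16HBE14o- overlapped 22 of 39 Calu3 BRD8 peaks by at least 1 bp, or 56.4% (39.6 to 72.2), against 50.1% of the whole list. In the other direction, 20 of 44 peaks of 16HBE14o- overlapped one of Calu3, or 45.5% (30.4 to 61.2), against 43.4% of the whole list. In the class I part the shares were 17 of 33 Calu3 peaks and 15 of 25 16HBE14o- peaks, and in the class III part 5 of 6 and 5 of 7. In the class II part, 0 of 12 16HBE14o- peaks overlapped a Calu3 peak (0 to 26.5%), as follows from the empty Calu3 list there. Over the rest of chromosome 6 the 2 directions were 66.4% for Calu3 and 23.8% for 16HBE14o-.

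Most BRD8 peaks of the MHC lay on CTCF peaks. A Calu3 CTCF peak overlapped 33 of 39 Calu3 BRD8 peaks, or 84.6% (69.5 to 94.1), against 70.5% of the whole list and 61.8% on the rest of chromosome 6. It overlapped 39 of 44 16HBE14o- BRD8 peaks, or 88.6% (75.4 to 96.2), against 65.3% of the whole list and 48.2% on the rest of chromosome 6. By part, the shares in 16HBE14o- were 21 of 25 in class I, 7 of 7 in class III and 11 of 12 in class II, and in Calu3 27 of 33 in class I and 6 of 6 in class III. The CTCF list comes from Calu3, and CTCF of 16HBE14o- was not analysed here, so the 11 class II peaks of 16HBE14o- BRD8 sat on CTCF positions of the other line.

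Seen from CTCF, the whole MHC was close to the list and its parts were not alike. BRD8 of Calu3 overlapped 29 of 94 CTCF peaks, or 30.9% (21.7 to 41.2), against 36.1% of the whole list, and BRD8 of 16HBE14o- overlapped 39 of 94, or 41.5% (31.41 to 52.1), against 38.0%. On the rest of chromosome 6 the shares were 24.2% for Calu3 BRD8 and 50.4% for 16HBE14o- BRD8. By part, the Calu3 BRD8 share was 23 of 46 in class I and 6 of 23 in class III. It was 0 of 25 in class II (0 to 13.7%), as follows from the empty Calu3 list there. For 16HBE14o- BRD8 it was 21 of 46, 7 of 23 and 11 of 25. The class II part thus had the share in 16HBE14o- that the class I part had, 44% (24.4 to 65.1) beside 45.7%, and no Calu3 BRD8 at all.

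**Figure D3:**
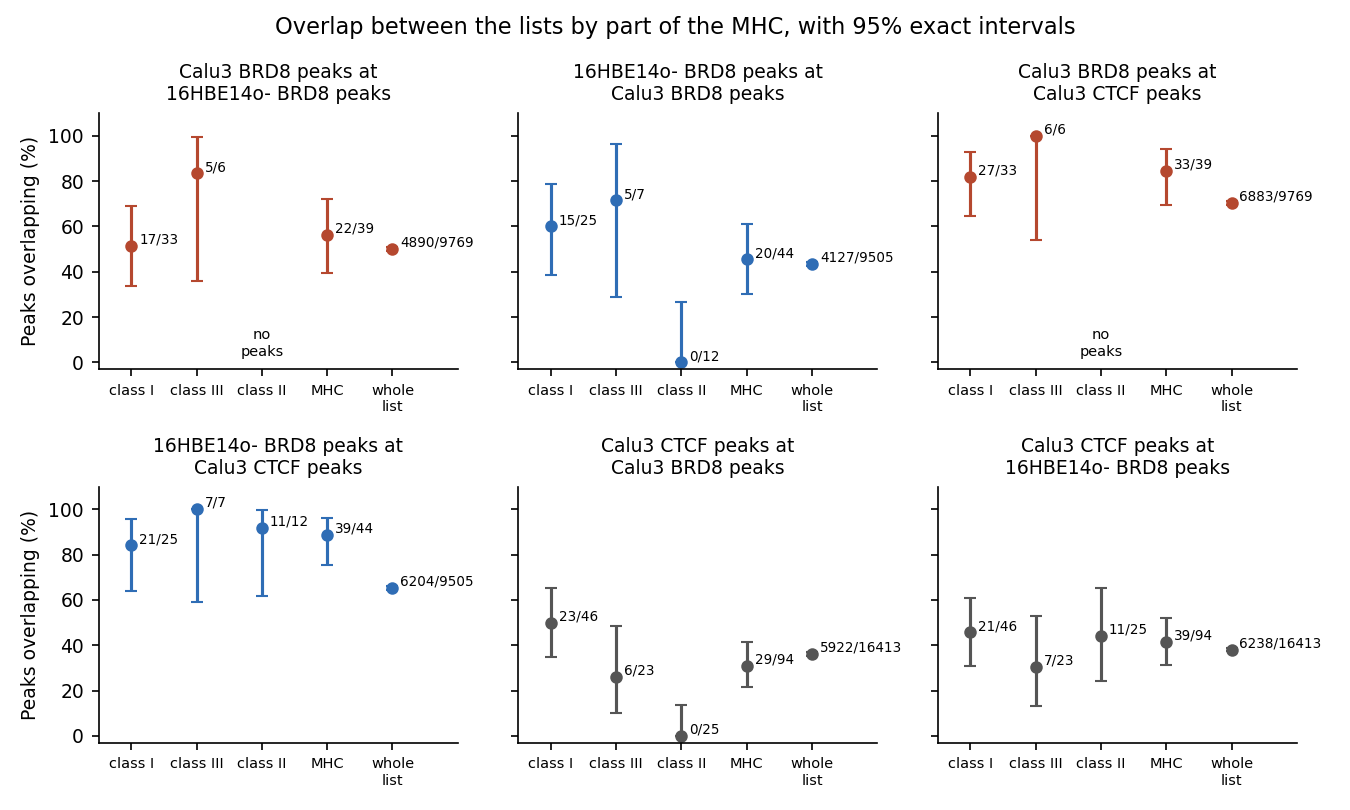
Points give the share of peaks (percent, vertical axis) of one list that overlap a peak of another by at least 1 bp, in each part of the MHC, over the MHC and over the whole list; bars are 95% exact intervals (counting error only) and labels the counts. The class II part has no Calu3 BRD8 peak, and therefore 0 of 25 CTCF peaks with Calu3 BRD8, and 11 of 25 with 16HBE14o- BRD8.

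The strongest CTCF peaks of the class II part carried BRD8 in 16HBE14o-, while Calu3 had no listed BRD8 peak anywhere in that part. Of the CTCF peaks in the strongest 25% of the list, 58.6% overlapped BRD8 of Calu3 and 67.9% overlapped BRD8 of 16HBE14o- over the whole list. On the rest of chromosome 6 the lines already differed in the same direction, with 39.6% for Calu3 and 81.3% for 16HBE14o-. The MHC held 20 such peaks, of which 11 had Calu3 BRD8 and 15 had 16HBE14o- BRD8. In the class I part the counts were 9 of 11 for each line, and in the class III part 2 of 5 for each line. In the class II part, 4 of 4 had 16HBE14o- BRD8. The count of 0 of 4 for Calu3 BRD8 follows from the empty Calu3 list there. With 4 peaks, the exact intervals are wide, 39.8 to 100% for 16HBE14o- and 0 to 60.2% for Calu3. The interval for Calu3 adds nothing to the absence of BRD8 peaks from its list.

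Those 4 CTCF peaks lay at 32806475 to 32806717 (signal 180.3, percentile 92.8), 32821816 to 32822020 (171.8, percentile 91.9), 33129302 to 33129506 (163.7, percentile 90.8) and the peak whose merged region starts at 33359149 (110.5, percentile 82.4). The fifth strongest of the part, at percentile 73.3, was in the CTCF list alone. At the first, the 16HBE14o- BRD8 peak had percentile 94.96 and its summit was 22 bp from that of CTCF. At the second, BRD8 had percentile 16.6 and the summits were 14 bp apart. A strong CTCF peak in Calu3 thus lay under both a strong and a weak BRD8 peak of the other line. The other 16HBE14o- BRD8 peaks among the 5 strongest of the class II part lay at 33247824 to 33248047 (percentile 74.7), 32915690 to 32915913 (71.8), 33129219 to 33129442 (63.4) and 32836048 to 32836271 (33.5), all over CTCF. The 1 class II peak of 16HBE14o- without CTCF overlap, starting at 33359361, had percentile 0.0894 and adjoined another BRD8 peak that did overlap CTCF.

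Merging all overlapping peaks gave 102 regions in the MHC, 55 in class I, 22 in class III and 25 in class II. All 3 lists met in 20 of them, or 19.6%, against 16.8% of merged regions over the genome. Calu3 BRD8 with CTCF was in 9 (8.82%, against 10.6% over the genome), and 16HBE14o- BRD8 with CTCF in 19 (18.6%, against 12.5%). Calu3 BRD8 alone was in 5 (4.90%, against 8.71%), 16HBE14o- BRD8 alone in 4 (3.92%, against 12.9%) and CTCF alone in 45 (44.1%, against 35.8%). No region held BRD8 of both lines without CTCF: CTCF was in 20 of 20 (83.2 to 100%), against 86.3% of such regions over the genome. Among regions with BRD8 of either line, 48 of 57 held CTCF, or 84.2% (72.1 to 92.5), against 62.2%. All 8 such regions of class III and all 11 of class II held CTCF, so the 9 without it were in class I, where 29 of 38 held it.

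The 20 regions with all 3 lists comprised 15 in class I and 5 in class III. The 3 summits lay close together: Calu3 BRD8 was a median of 38.5 bp from CTCF (0 to 108), 16HBE14o- BRD8 was 22 bp from CTCF (4 to 53), and the BRD8 summits of the 2 lines were 33.5 bp apart (1 to 120). Over all overlapping pairs of the MHC, the median distance from CTCF was 43 bp for Calu3 BRD8 (33 pairs) and 18 bp for 16HBE14o- BRD8 (39 pairs), against 37 and 19 bp over the whole lists. The MHC peaks were 476 bp wide in the Calu3 BRD8 list and 224 bp in the 16HBE14o- list without exception. With all peaks set to 200 bp around the summit, the medians were 40 bp for Calu3 BRD8 (31 pairs) and 18 bp for 16HBE14o- BRD8 (39 pairs). Because this setting leaves every summit in place, it could not test whether peak width bears on the distances.

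BRD8 in Calu3 and in 16HBE14o- can be set side by side at these 20 regions, each by its rank within its own list. The median percentile was 79.5 in Calu3 (25.4 to 97.1) and 60.4 in 16HBE14o- (10.6 to 92.8), and that of CTCF was 74.8 (38.6 to 98.2). The Calu3 percentile was the higher one at 14 of 20 regions, and the median difference, Calu3 minus 16HBE14o-, was 20.2 points (-56.5 to 53.8). Over the 4105 genome-wide regions with BRD8 of both lines, 56.2% ranked higher in Calu3 and the median difference was 3.52 points. A percentile places a peak within its own list, so such a difference is one of rank and does not measure a difference in binding between the lines.

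Ranks were high in all 3 lists at 4 of the shared regions named next, where the values are the percentiles of Calu3 BRD8, 16HBE14o- BRD8 and Calu3 CTCF in that order. They were 86.5, 84.2 and 90.4 at 29720750 to 29721225, and 81.8, 92.8 and 90.9 at 30646660 to 30647135. They were 82.8, 83.2 and 83.3 at 31105166 to 31105641, and 83.2, 89.7 and 98.2 at 31548547 to 31549022, the one of the 4 in the class III part. These are the positions of the MHC at which the lists differed least in rank while all ranked high. The region from 30364578 to 30365053 had slightly lower BRD8 ranks, 74.0 and 76.9, under a CTCF peak at 92.0.

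The BRD8 ranks of the lines were far apart, in either direction, at others. Calu3 ranked high and 16HBE14o- low at 31763574 to 31764049 (72.3, 18.4 and 92.3) and at 31566271 to 31566746 (89.4, 40.1 and 58.0), both in class III, and at 31047481 to 31047956 (79.0, 38.1 and 64.0). The opposite order stood out at 30509189 to 30509664 (25.4, 81.9 and 60.3). Both BRD8 peaks ranked below the middle of their lists under a strong CTCF peak at 30881844 to 30882319 (40.8, 11.9 and 84.7). All 3 ranked below the middle at 29617770 to 29618245 (45.9, 10.6 and 38.6). A high CTCF rank in Calu3 thus stood beside both high and low BRD8 ranks of 16HBE14o-. At the regions of high CTCF rank in this paragraph, Calu3 BRD8 had percentiles of 72.3 and 40.8.

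At the remaining 9 regions the values lay between these patterns. At 29815809 to 29816284 they were 91.8, 66.5 and 47.4, at 30070827 to 30071302 they were 75.8, 82.8 and 49.7, and at 30098721 to 30099412 they were 97.1, 71.6 and 61.6. Those 3 combined high BRD8 ranks with CTCF nearer the middle of its list. At 30698566 to 30699250 the order was turned, with 52.9, 44.8 and 90.6. At 30796187 to 30796662 the values were 74.9, 57.8 and 65.0, at 31367366 to 31367841 they were 82.7, 59.4 and 84.5, and at 31409350 to 31409825 they were 80.0, 55.7 and 88.4. In class III they were 85.7, 54.8 and 66.3 at 31514378 to 31514853 and 73.8, 61.4 and 61.3 at 31737483 to 31737958. In these last 5 the Calu3 BRD8 percentile was above that of 16HBE14o- each time.

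**Figure D4:**
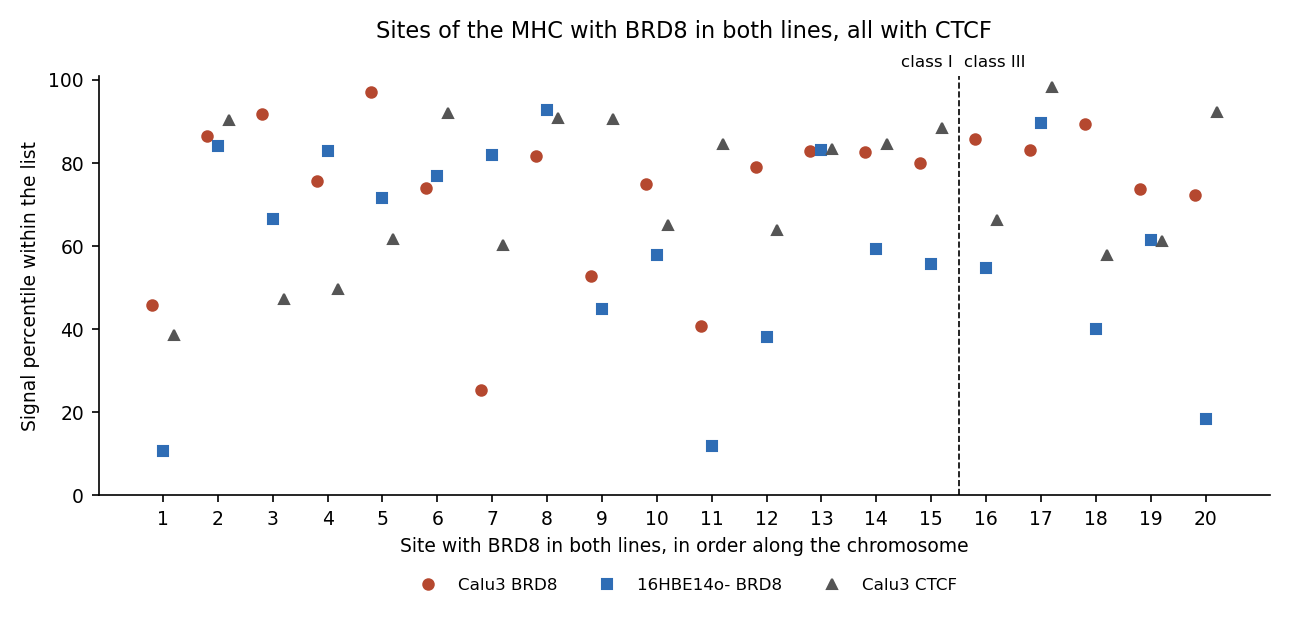
The 20 merged regions of the MHC with BRD8 in both lines, in order along the chromosome (horizontal axis), with the signal percentile within each list (vertical axis) of Calu3 BRD8 (circles), 16HBE14o- BRD8 (squares) and Calu3 CTCF (triangles). The circle lies above the square at 14 of 20 regions, and all 20 lie left of the class II part.

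CTCF peaks of the MHC were divided by the lines whose BRD8 overlapped them. The median CTCF percentile was 74.8 with BRD8 in both lines (20 peaks), 59.0 with Calu3 BRD8 alone (9), 67.9 with 16HBE14o- BRD8 alone (19) and 48.8 with neither (46 peaks, or 48.9%, against 47.7% of the whole list). The whole list had the same order, with medians of 76.7, 51.7, 60.2 and 34.1. The class I and class III parts did not. For both lines, Calu3 alone, 16HBE14o- alone and neither, the class I medians were 83.3 (15 peaks), 57.6 (8), 52.8 (6) and 47.3 (17). Those of class III were 66.3 (5 peaks), 67.9 (1), 72.9 (2) and 55.2 (15). CTCF peaks of the MHC with no BRD8 thus had a higher median than such peaks of the whole list. The strongest of them, at 29670398 to 29670556, had percentile 85.7. In the class III part 15 of 23 CTCF peaks had no BRD8 of either line, including 31740647 to 31740936 (percentile 78.0), 31697136 to 31697425 (77.9) and the peak that starts at 32223004 (75.5), which completed the 5 strongest of that part.

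Of the regions with BRD8 of 1 line and CTCF, 8 of 9 for Calu3 lay in class I, and 6, 2 and 11 of 19 for 16HBE14o- lay in class I, III and II. The Calu3 BRD8 peaks of this kind ranked high, with a median percentile of 81.9 (17.5 to 94.0) over CTCF peaks with a median of 59.0. The 16HBE14o- BRD8 peaks of this kind ranked lower in their list, with a median of 38.8 (2.80 to 94.96) over CTCF peaks with a median of 67.9. In class III the 2 of 16HBE14o- lay at 32055422 to 32055645 (percentile 70.2) and 32086621 to 32086844 (45.6), both to the right of the last Calu3 BRD8 peak.

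BRD8 without a listed CTCF peak was confined to class I in these lists, apart from the weak adjoining peak at 33359361. In Calu3 the 3 strongest were 29705783 to 29706258 (percentile 86.5, 15.0 kb from the nearest CTCF summit), 30512325 to 30512800 (54.3, 3.18 kb) and 29980977 to 29981452 (51.5, 62.0 kb). In 16HBE14o- the strongest was 30640806 to 30641029 (70.9, 6.01 kb), followed by the peaks that start at 30565200 (45.3) and 31070204 (30.7). Each was listed for 1 line only.

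The stretch without Calu3 BRD8 ran past both ends of the class II part. The neighbouring Calu3 BRD8 summits lay at 31856447, in the class III part, and at 33553548, beyond the right bound of the MHC, 1697 kb apart. Gaps of this length were not rare in the list: 356 of 9746 gaps, or 3.65%, were as long or longer. It held 36 CTCF summits, where the most in any other Calu3 BRD8 gap was 24, and 14 BRD8 summits of 16HBE14o-, a number reached by 13 gaps, this one included. In the upper 50% of each list it held 23 CTCF summits and another gap held 25, so it no longer held the most. With merged peaks it still held the most, 35 against 24, and with lists of equal length 27 against 17. Because this gap was examined after its values were seen, these counts are a description.

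The CTCF peaks inside it had a median percentile of 58.6. Of these 36 peaks, 23 lay in the upper 50% of the list and 13 overlapped BRD8 of 16HBE14o-. Among the 36, the peak at 31856590 to 31856879 also overlapped the Calu3 BRD8 peak at the left end of the gap. When the CTCF list was shortened by signal, its peaks were ranked anew within the shortened list. The median of the class II CTCF peaks that remained was 37.6 with lists of equal length and 35.8 in the upper 50%. It was 58.1 in the full list, which is a different scale. The 14 BRD8 peaks of 16HBE14o- had a median of 29.7, and 13 of them overlapped CTCF. The 12 in the class II part were 194 to 747 kb from the nearest Calu3 BRD8 summit, with a median of 526 kb, against a median of 7.46 kb over the 16HBE14o- list. Long distances follow from the place of these peaks inside the gap. Calu3 BRD8 was also sparser on the rest of chromosome 6 than over its list (1.42 against 3.22 peaks per Mb), and no such median is given for that chromosome. The next longest Calu3 BRD8 gap of the MHC, from 30099175 to 30364816, was 266 kb with 3 CTCF summits. The longest 16HBE14o- gap, 423 kb from 32383392 to 32806617, and the longest CTCF gap, 277 kb from 32383371 to 32660030, overlapped at the left of the class II part. The next longest 16HBE14o- gaps, 295 kb from 32086733 to 32381354 and 292 kb from 31763785 to 32055534, lay mostly in the class III part. No list had a summit between 32383392 and 32660030, while from 32806617 to the end of the class II part Calu3 BRD8 alone had none.

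**Figure D5:**
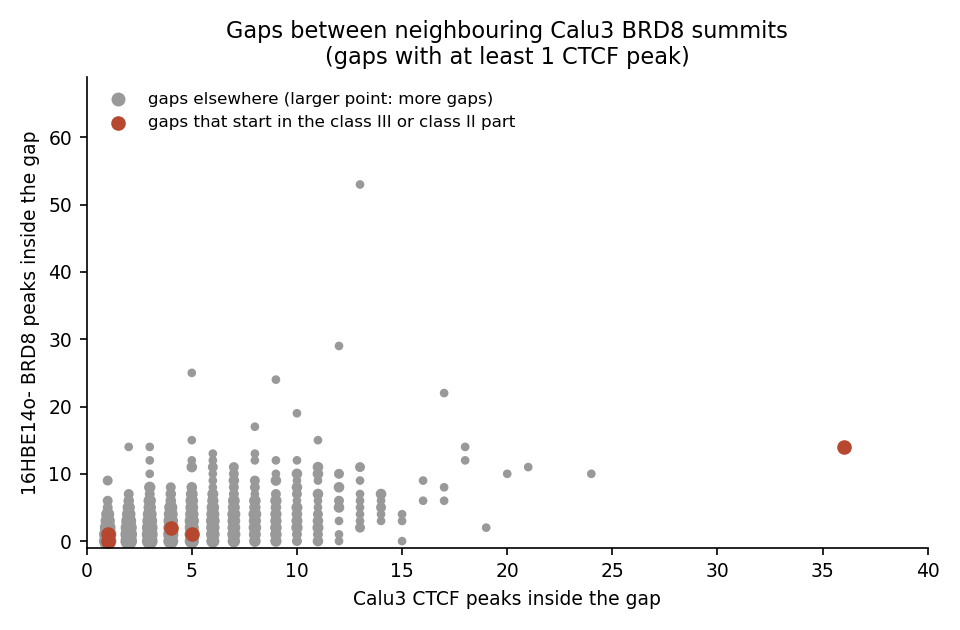
Each grey point stands for gaps between neighbouring Calu3 BRD8 summits, by the CTCF peaks (horizontal axis) and 16HBE14o- BRD8 peaks (vertical axis) they hold; larger points stand for more gaps, and gaps without CTCF are not drawn. Gaps that start in the class III part are drawn in red. The one over the class II part lies at 36 CTCF and 14 16HBE14o- BRD8 peaks, farthest right of all in the full lists. In the upper 50% of each list it held 23 CTCF peaks, against 25 in another gap. With merged peaks or lists of equal length it still held the most.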

How the data were processed

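Per the file headers and the submitters' processing notes, the 3 peak lists are on hg19. Each list was made by the authors with IDR from the 2 replicates of 1 experiment, per the design text of the series (6 samples in all). The aligner, peak caller, control library and IDR settings are not given in the sources used here. The authors' deposited signal ranks the peaks of a list, and was turned into a percentile within that list; the deposited score columns and the summit offset are the authors' as well, and of these only the offset was used, to place the summit. Signals were never compared between lists, and other columns of single samples numbered 0.

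Peaks overlapped from 1 bp. Overlaps were computed in Python 3.11.15 (numpy 2.4.6, pandas 2.3.3, scipy 1.17.1), equalled those of bedtools 2.31.1, and were checked on simulated peaks; figures used matplotlib 3.10.9 and chromosome lengths GenomeInfoDb 1.38.1. No test was made, because each experiment is 1 pooled list and peaks are not replicates. The region, its parts and the genes were chosen with earlier results of these data known. Named are the 5 strongest peaks per list and part, regions with all 3 lists or BRD8 of both lines, and the 3 strongest BRD8 peaks per line and part without CTCF; the other peaks given, and the gap, were chosen after their values were seen. Alternatives changed the overlap rule, peak width, list length, merging and bounds.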

Additional observations from a re-analysis of the deposited data

How the results depend on the processing

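Of 480 values recomputed for 83 results, 428 stayed within the stated limits (1.5 times for a count, the counting interval for a share or median) and 52 moved. Some could not move, such as whole-MHC values under moved part bounds, which kept the outer bounds. Limits were wide in parts with few peaks, so the tally does not measure robustness. A reciprocal overlap of at least 50% cannot be met by peaks of 476 and 224 bp, so it gave 0% in both directions between the BRD8 lists; it gave 51.3% of Calu3 BRD8 peaks at CTCF and 19.1% of CTCF peaks at Calu3 BRD8. With summits within 100 bp, 66.7% of Calu3 BRD8 peaks were at CTCF. Shares of the whole lists were not recomputed under these overlap rules, so these MHC shares cannot be set beside those of the lists. In the upper 50% of each list, which drops peaks by construction, the MHC held 22 16HBE14o- BRD8 and 59 CTCF peaks, the CTCF median percentile was 42.5, 11 regions held all 3 lists, 29 held CTCF alone, and the gap held 5 16HBE14o- BRD8 and 23 CTCF peaks, no longer the most of any gap. With lists of equal length the CTCF median was 39.6 and 29 regions held CTCF alone. The gap then held 27 CTCF peaks, against at most 17 in any other, and with merged peaks 35 against 24. In the upper 50% and with equal length, percentiles were ranked anew within the shortened list. With the bounds at 28500000 and 33900000, the class II part held 3 Calu3 BRD8 peaks, all beyond 33400000. The class II part itself held 0 under merging, the upper 50% and equal length, none of which can add a peak. It also held 0 with moved bounds, which stayed inside the same gap. These settings therefore could not test the absence. No paired analysis was possible because each experiment is 1 pooled list. Depth and replicate spread are unknown, and a peak missing from a list is not a measured zero.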
